A study of Rattus norvegicus with 6 samples.

Results

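Transcripts of 4 genes of glycolysis and of pyruvate and succinate oxidation were followed in rat lung after long hypoxia. They are Ldha, Pgk1, Pdk3 and Sdha, and 5 probes of a circular RNA (circRNA) array read them. The probes were taken by name, with earlier results of these data known: A_44_P210461 and CUST_6_PI421900130 for Ldha, CUST_2_PI421900130 for Pgk1, A_44_P443343 for Pdk3 and CUST_12_PI421900130 for Sdha. They belong to 62 probes of linear transcripts among 14227 non-control probes, of which 14145 target circRNAs. Each of the 5 was printed in 10 spots, so 50 spots per array carry the measurements.

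The hypoxia group held 3 arrays from lungs of male rats, 6 weeks old, kept at 10% oxygen for 21 days, an exposure used to induce pulmonary arterial hypertension. The normoxia group held 3 arrays from male rats of the same age kept in normal air as long. The lungs of both groups were perfused with buffered saline, and their total RNA was digested with RNase R before labelling with Cy3. The labels give no strain and do not say that each array had its own animal, so the p-values below speak only to the spread among these 6 samples, part of which may be technical. In whole lung, fewer cells of a type and less RNA per cell cannot be told apart.

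Glycolysis splits glucose to pyruvate. Pgk1, phosphoglycerate kinase, catalyses an ATP-forming step of that route. Ldha, the A subunit of lactate dehydrogenase, turns pyruvate to lactate and so restores the NAD that glycolysis uses. Pdk3 is one of the kinases that phosphorylate and switch off pyruvate dehydrogenase, the gate from pyruvate to the citric acid cycle. Sdha is the flavoprotein subunit of succinate dehydrogenase, which works in that cycle and in the respiratory chain as complex II. Ldha and Pgk1 are textbook targets of hypoxia-inducible factor (HIF), whose core DNA motif includes ACGTG, while Sdha is often used as a reference gene. RNase R degrades RNA with free ends, so every value below is the linear transcript left after digestion. How complete the digestion was on each array was not measured, and a difference in it cannot be told apart from a difference in messenger RNA.

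The 100 bases before the transcription start of 3 of the genes are printed below because ACGTG is the motif by which the first of them is known as a hypoxia target. They come from RefSeq on build GRCr8, and 3 of the 4 genes matched the promoter table. Capitals mark ACGTG on either strand (CACGT in the printed strand is its reverse complement), and the overlapping pair in CACGTG counts as 2 matches.

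Ldha, chr1:106507992-106508091, plus strand: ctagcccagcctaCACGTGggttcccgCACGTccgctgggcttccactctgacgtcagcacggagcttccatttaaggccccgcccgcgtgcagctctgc

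Pdk3, chrX:62547372-62547471, minus strand: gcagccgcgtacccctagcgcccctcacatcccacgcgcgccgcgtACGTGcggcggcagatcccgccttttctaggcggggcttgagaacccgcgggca

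Sdha, chr1:30764453-30764552, plus strand: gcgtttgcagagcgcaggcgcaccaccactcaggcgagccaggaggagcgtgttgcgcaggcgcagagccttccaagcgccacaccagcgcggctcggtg

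The Ldha stretch held 3 matches, that of Pdk3 1 and that of Sdha 0. Of 33469 promoter stretches of the same length, 7.76% held at least 1. A match describes letters and is not a measured binding site.

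The 75th percentile of the processed signal, the brightness by which each array was scaled, was 102.1, 171.4 and 92.6 units on normoxia 1 to 3. It was 160.0, 167.6 and 126.6 on hypoxia 1 to 3. Both dimmest arrays were therefore in the normoxia group. The local background was 18 to 20 units on every array, and no non-control spot was saturated. A level below is the mean over the 10 spots of log2 signal minus log2 of that percentile, so 0 means a signal at the percentile. Probes differ in their brightness per molecule, so levels of different probes are not ranked, and only changes of a ratio between probes are compared below.

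Of the other genes of these pathways, none had a probe matched to its symbol. Only 39 of the 62 linear transcript probes had a gene symbol, so a gene without a match may still have a probe. Among 25 glycolysis genes the matched ones were Ldha and Pgk1, among 14 genes of pyruvate oxidation Pdk3, and among 32 of the citric acid cycle and respiratory chain Sdha. The list of 21 hypoxia response genes (20 of them in RefSeq) and that of 23 lung cell type markers (22 in RefSeq) had 0 matched genes. The tissue label therefore could not be checked on markers.

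Both Ldha probes gave higher mean levels in hypoxic lung, neither beyond the spread between arrays. The brighter one, A_44_P210461, had median spot signals of 287.9, 441.0 and 255.6 units on normoxia 1 to 3 and of 444.7, 423.3 and 415.3 on hypoxia 1 to 3. After scaling its levels were 1.501, 1.36 and 1.47 in normoxia and 1.4998, 1.34 and 1.69 in hypoxia. The groups overlapped fully: hypoxia 3 was the highest array and hypoxia 2 the lowest. Normoxia averaged 1.45 ± 0.07 and hypoxia 1.51 ± 0.18 (SD, 3 arrays each), a difference of 0.06 (SE 0.20, 95% interval -0.39 to 0.51, limma adjusted p = 0.82). As a fold this is 1.04, with an interval from 0.76 to 1.43. A rise above 1.43-fold therefore lay outside the interval of this probe, while that of the other Ldha probe reached 1.73. Within slide row 1 the difference was 0.05.

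The other Ldha probe, CUST_6_PI421900130, showed a steadier upward displacement. Its median spot signals were 32.6, 64.3 and 35.7 units in normoxia and 61.6, 76.2 and 64.1 in hypoxia. Its levels were -1.68, -1.43 and -1.38 in normoxia and -1.41, -1.17 and -0.98 in hypoxia. Hypoxia 2 and 3 stood above every normoxia array, and hypoxia 1 fell just below normoxia 3, so the groups overlapped by that array. Normoxia averaged -1.49 ± 0.16 and hypoxia -1.18 ± 0.22 (SD, 3 arrays each), a difference of 0.31 (SE 0.21, 95% interval -0.17 to 0.79, limma adjusted p = 0.52). The fold was 1.24, with an interval from 0.89 to 1.73.

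Same-numbered arrays of this Ldha probe differed by 0.27, 0.26 and 0.40, each higher in hypoxia. Here and below, comparing same-numbered arrays rests on their values and not on a stated design. With the replicate number as a block, the limma adjusted p was 0.31. With array weights estimated on all tested probes, which were 5.04 for normoxia 3, 6.24 for hypoxia 3 and at most 0.61 elsewhere, the difference was 0.37 and passed (limma adjusted p = 0.041). That fit rests largely on 1 array per group. Slide row 2 held hypoxia 2 and 3 only, and within row 1, where hypoxia 1 is the single hypoxia array, the difference was 0.08.

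Over the 6 arrays no clear correlation of the Ldha probes was seen, which does not show that they moved apart. Both were highest on hypoxia 3. Their levels had a Pearson correlation of 0.35 over the 6 arrays (exact permutation p = 0.49, 1 relation) and Spearman's rho was 0.03 (exact permutation p = 1). Without hypoxia 2 and hypoxia 3, the arrays farthest from the median of the brighter probe, Pearson's r was -0.33. The log2 ratio of the brighter to the dimmer probe differed between hypoxia and normoxia by -0.25 (exact two-sided permutation p = 0.30), where 3 against 3 arrays allow no p below 0.10. Between same-numbered arrays it differed by -0.27, -0.29 and -0.19, lower in hypoxia in each of 3 pairs. An exact sign-flip permutation over these pairs gave p = 0.25, the smallest it can give, so that test could not pass. With both probes averaged on each array, the difference was 0.19 (SE 0.20, limma adjusted p = 0.59). The files hold no probe sequences, so whether a probe also binds an Ldha pseudogene or paralog was not tested.

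Pgk1 was dim on all 6 arrays. Its median spot signals were 8.21, 19.1 and 10.5 units in normoxia and 18.5, 21.8 and 11.6 in hypoxia, against a local background of 17 to 20 under these spots. Between 8 and 10 of its 10 spots were well above background on each array. Its levels were -3.73, -3.23 and -3.21 in normoxia and -3.17, -3.01 and -3.57 in hypoxia. Both groups held a low array, normoxia 1 and hypoxia 3, and the other 4 lay within a narrow band. Normoxia averaged -3.39 ± 0.29 and hypoxia -3.25 ± 0.29 (SD, 3 arrays each), a difference of 0.14 (SE 0.24, 95% interval -0.41 to 0.70, limma adjusted p = 0.79). The fold of 1.103 had an interval from 0.75 to 1.62. The sign turned without normoxia 1 (-0.03), in spot medians without background correction (-0.14) and with the array weights estimated on all tested probes (-0.26), and Pgk1 passed in none of these. It was 0.21 without the 2 border spots of the probe, 0.22 within slide row 1 and 0.79 under normexp background correction without offset.

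Pdk3 had the largest mean difference of the 5 probes in the main setting, with normoxia arrays far apart and hypoxia arrays close together. Its rank fell below the dimmer Ldha probe (0.31) with the median over spots (Pdk3 0.20), and below that probe (0.31) and Pgk1 (0.21) without border spots (Pdk3 0.11). With all spots it also fell below both under normexp with an offset of 50 (Pdk3 0.21, dimmer Ldha probe 0.25, Pgk1 0.23). The same held without normoxia 3 (Pdk3 0.14, dimmer Ldha probe 0.37, Pgk1 0.23). Its median spot signals were 9.32, 28.4 and 7.95 units in normoxia and 21.4, 21.5 and 14.6 in hypoxia. The local background under its spots was 17.5 to 20 units, so Pdk3 was dim too. Of its 10 spots, 8, 10 and 6 were well above background on normoxia 1 to 3, and all 10 on each hypoxia array. Its levels were -3.62, -2.63 and -3.90 in normoxia and -2.92, -2.997 and -3.05 in hypoxia. Normoxia 2 was the highest of the 6 arrays, while normoxia 1 and 3 were the lowest, so the groups overlapped. Normoxia averaged -3.38 ± 0.67 and hypoxia -2.99 ± 0.06 (SD, 3 arrays each), a difference of 0.39 (SE 0.32, 95% interval -0.34 to 1.13, limma adjusted p = 0.52). The fold of 1.31 had an interval from 0.79 to 2.18. The difference was 0.77 without normoxia 2 and 0.14 without normoxia 3 (limma adjusted p = 0.068 and 0.80).

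On normoxia 1 and 3, the Pdk3 spots near the border of the array were much dimmer than its inner spots, a pattern seen after the values had been examined. Of its 10 spots, 3 lay within 4 rows or columns of the border of the grid of 192 rows and 82 columns: in row 1, in row 2 and in column 82. On normoxia 3 these spots had signals of 2.73, 3.19 and 3.25 units, none well above background, and on normoxia 1 they had 3.96, 4.06 and 6.91. On hypoxia 1, 2 and 3 the same 3 positions gave from 14.1 to 23.4 units.

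As a median, the border spots of Pdk3 stood below the probe's own median by -1.19 on normoxia 1 and -1.32 on normoxia 3. On normoxia 2 and hypoxia 1 to 3 this deviation was -0.10, -0.21, 0.07 and 0.25. None of these spots had an outlier flag. The inner-spot levels were -3.28, -2.56 and -3.46 in normoxia and -2.82, -3.02 and -3.13 in hypoxia, so normoxia 1 and 3 were the lowest arrays there too. With the 7 inner spots alone, normoxia averaged -3.10 ± 0.48 and hypoxia -2.99 ± 0.16 (SD, 3 arrays each), a difference of 0.11 (SE 0.27, limma adjusted p = 0.81). The array weights estimated on all tested probes gave Pdk3 a difference of 0.78 that passed (limma adjusted p = 0.0081). Without the border spots the weighted difference was 0.31 and did not pass (limma adjusted p = 0.12).

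Border spots were low in some other linear transcripts too. Of the 29 other tested probes, 21 had border spots, and the median of these was taken for each probe. On normoxia 1 these deviations ran from -1.74 to 0.04 with a median of -0.11, and 2 of the 21 probes were as low as Pdk3. On normoxia 3 they ran from -0.80 to 0.24 with a median of 0.0028, and none of the 21 was as low as Pdk3. Low border spots were therefore not confined to Pdk3, but among these 21 a drop as large was rare on normoxia 1 and unmatched on normoxia 3. The 21 probes were not matched to Pdk3 in brightness or in border position. The same loss in units gives a larger log2 drop at a dim probe such as Pdk3. No test was made.

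**Figure D1:**
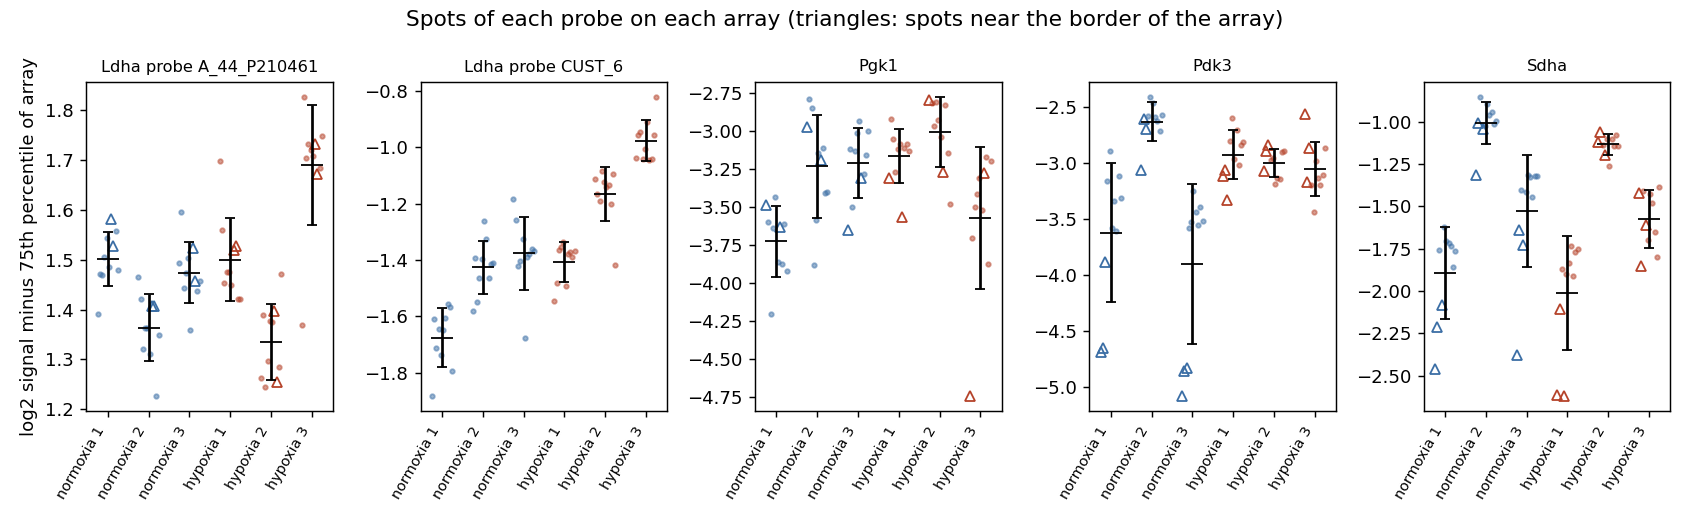
Level of every spot (log2 signal relative to the array's 75th percentile) of the 5 probes on the 6 arrays, normoxia in blue and hypoxia in red; triangles are spots within 4 rows or columns of the border, black bars the mean and SD over the 10 spots, and each panel has its own scale. For Pdk3 the triangles of normoxia 1 and 3 lie far below the other spots of those arrays, and in every panel the groups overlap.

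Pdk3 also followed the brightness of the array. Over the 6 arrays its level had a Pearson correlation of 0.95 with the log2 75th percentile (exact permutation p = 0.0028, 0.014 after Benjamini-Hochberg adjustment over 5 probes) and a Spearman's rho of 0.94 (exact permutation p = 0.017). Without normoxia 1 and 3, the arrays farthest from the median brightness, r was 0.63 over 4 arrays. With the inner spots alone, r over the 6 arrays was 0.90. The percentile is also subtracted in the level. For the other probes r ran from -0.44 to 0.56, and the smallest exact permutation p was 0.26 (adjusted 0.52). Without normoxia 1 and 3, r over the same 4 arrays was -0.96 for the brighter Ldha probe, -0.80 for the dimmer one, 0.89 for Pgk1 and 0.40 for Sdha. On those 4 arrays r was thus larger in size for both Ldha probes and Pgk1 than for Pdk3, with differing signs, and was not tested. What part brightness has in the Pdk3 difference was not tested. Within slide row 1, where hypoxia 1 is the single hypoxia array, the Pdk3 difference was 0.46.

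**Figure D2:**
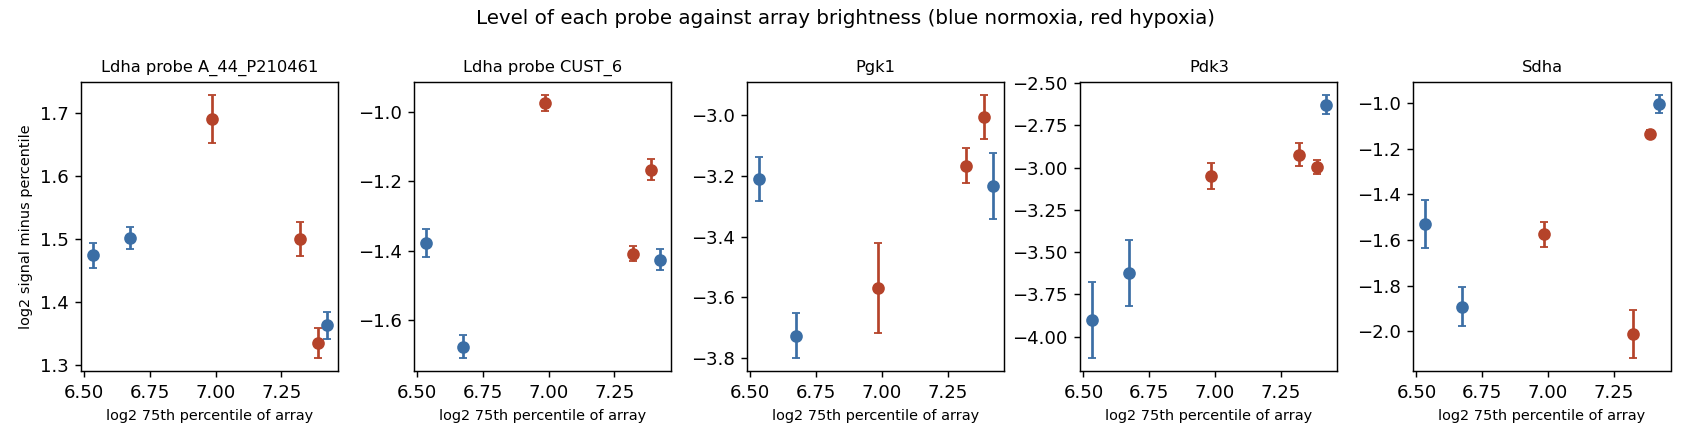
Level of each of the 5 probes (vertical, log2 signal minus percentile, bars are the SE over 10 spots) against the log2 75th percentile of the array (horizontal), with normoxia arrays in blue and hypoxia arrays in red. Pdk3 rises along the axis with r of 0.95, its lowest values on normoxia 1 and 3, and the other probes show r from -0.44 to 0.56 over 6 arrays; without normoxia 1 and 3, r is 0.63 for Pdk3 and -0.96, -0.80, 0.89 and 0.40 for the Ldha probes, Pgk1 and Sdha.

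Sdha had a small negative difference. Its median spot signals were 30.1, 85.6 and 34.9 units in normoxia and 43.2, 76.6 and 43.4 in hypoxia. Its levels were -1.89, -1.01 and -1.53 in normoxia and -2.01, -1.13 and -1.57 in hypoxia. Each hypoxia array stood just below the normoxia array of its number, by 0.12, 0.13 and 0.05, and both groups spanned nearly the same range. Normoxia averaged -1.48 ± 0.45 and hypoxia -1.57 ± 0.44 (SD, 3 arrays each), a difference of -0.10 (SE 0.31, 95% interval -0.80 to 0.60, limma adjusted p = 0.82). The fold of 0.93 had an interval from 0.58 to 1.51.

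With the replicate number as a block, the SE of the Sdha difference was 0.18 in place of 0.31 (limma adjusted p = 0.76). Sdha also had 3 border spots, in rows 1 and 4 and in column 81, whose median deviation was -0.45 on normoxia 1, -0.32 on normoxia 3 and -0.73 on hypoxia 1. It lay between -0.07 and 0.01 on the other arrays. With the inner spots alone the difference was -0.15 (limma adjusted p = 0.76). The sign turned without normoxia 2 (0.14) and without hypoxia 1 (0.12), and within slide row 1, where hypoxia 1 is the single hypoxia array, the difference was -0.54.

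The error of the mean over 10 spots differed between the probes. Its median over the arrays was 0.02 and 0.03 for the Ldha probes and 0.07 each for Pgk1, Pdk3 and Sdha, and it reached 0.20 and 0.23 for Pdk3 on normoxia 1 and 3. The SD between arrays of a group, pooled over both groups, was 0.14 and 0.19 for the Ldha probes, 0.29 for Pgk1, 0.48 for Pdk3 and 0.44 for Sdha. The spread between arrays therefore was larger than the median spot error for each probe.

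Each glycolysis or pyruvate oxidation probe was also set against Sdha within the same array, which cancels the scaling. The change of the log2 ratio to Sdha from normoxia to hypoxia was 0.16 and 0.41 for the Ldha probes (the first being A_44_P210461), 0.24 for Pgk1 and 0.49 for Pdk3. With the arrays taken as unpaired, none passed (exact two-sided permutation p = 0.70, 0.30, 0.60 and 0.30; adjusted over these 4, 0.70, 0.60, 0.70 and 0.60). Between same-numbered arrays the ratio of the dimmer Ldha probe to Sdha was higher in hypoxia by 0.39, 0.39 and 0.45, an SD of 0.03 over 3 pairs. That SD is no measure of precision, since the median spot error alone was 0.03 for this Ldha probe and 0.07 for Sdha. It also depends on the Sdha border spots. Without them the Sdha levels were -1.74, -0.96 and -1.36 in normoxia and -1.83, -1.14 and -1.55 in hypoxia. With these levels the 3 pair differences were less alike. The ratio of the brighter Ldha probe to Sdha was higher by 0.12, 0.10 and 0.26, while those of Pgk1 and Pdk3 were higher in 2 of 3 pairs. An exact sign-flip permutation over 3 pairs gave p = 0.25 for both Ldha probes, the smallest it can give, so this test could not pass. Without border spots the changes were 0.22, 0.46, 0.36 and 0.27 in the same order, so that of Pdk3 was smaller than that of the dimmer Ldha probe. The 4 ratios share their denominator, so their common sign in the main setting is not 4 separate results. That sign did not hold under normexp with an offset of 50, where the difference was 0.13 for Sdha and -0.0016 for the brighter Ldha probe. For the dimmer Ldha probe, Pgk1 and Pdk3 it was 0.25, 0.23 and 0.21 there. In spot medians without background correction it was -0.14 each for Pgk1 and Sdha, -0.11 for Pdk3, and 0.09 and 0.12 for the Ldha probes.

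In the limma fit over 34 linear transcript probes with enough signal, 0 of the 5 probes passed, where 2 of 34 (5.88%) did, both lower in hypoxia. At an unadjusted p under 0.05 the numbers were 0 of 5 and 5 of 34. For 0 of the 5 did the arrays of both groups lie apart, against 8 of 34 (23.5%). The 5 differences ran from -0.10 to 0.39 with a median of 0.14, and all 34 from -1.52 to 0.79 with a median of 0.03. By size, Pdk3 was number 12 of the 34, the dimmer Ldha probe 15, Pgk1 26, Sdha 29 and the brighter Ldha probe 33. A p above the threshold does not show that hypoxia left these transcripts alike: the intervals reached upward folds of 1.43 and 1.73 for the Ldha probes, 1.62 for Pgk1, 2.18 for Pdk3 and 1.51 for Sdha.

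**Figure D3:**
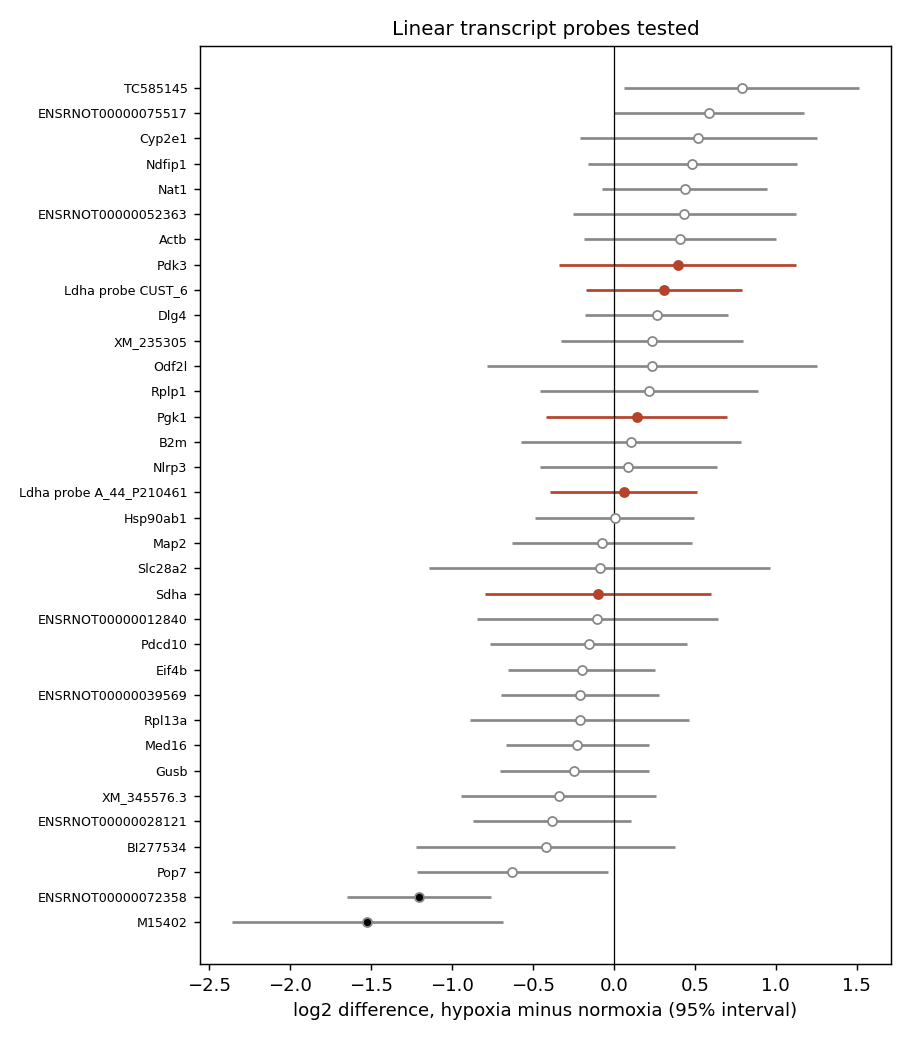
Difference between hypoxia and normoxia on the log2 scale with its 95% limma interval for the 34 linear transcript probes tested, ordered by size, with the 5 probes of Ldha, Pgk1, Pdk3 and Sdha in red and the 2 that passed filled in black. The 5 red intervals all span 0, and their point estimates lie between -0.10 and 0.39.

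The patterns over the 6 arrays that were most like those of the 5 probes were sought among 18 other named and tested probes. As a description without a test, the brighter Ldha probe had its highest Pearson correlations with Nat1 (r = 0.80), an arylamine N-acetyltransferase, and Cyp2e1 (r = 0.66), a cytochrome P450. The dimmer Ldha probe had them with Rplp1 (r = 0.75), a protein of the ribosomal stalk, and Nat1 (r = 0.73). Pgk1 was most like Nlrp3 (r = 0.85), an inflammasome sensor, and Actb (r = 0.74), cytoskeletal beta-actin. Nlrp3 was as dim as the filter allowed, with enough signal on 3 arrays and mean levels of -4.17 in normoxia and -4.08 in hypoxia. Nat1 was dim too, with enough signal on 5 arrays and mean levels of -4.04 and -3.60.

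Pdk3 was most like Ndfip1 (r = 0.81), an adaptor of ubiquitin ligases, and Dlg4 (r = 0.77), a scaffold of synapses. Sdha was most like Slc28a2 (r = 0.94), a nucleoside transporter, and Rplp1 (r = 0.68). These are the highest of 18 values each over 6 arrays that share their scaling. The median r over the 18 was 0.19 for the brighter Ldha probe and 0.31 for the dimmer one. For Pgk1, Pdk3 and Sdha it lay between -0.12 and 0.09. None of the 5 had another of the 5 among the candidates, and the brighter Ldha probe had r of -0.67 with Pgk1 and -0.58 with Sdha.

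The differences were recomputed under 29 other settings. The dimmer Ldha probe kept a positive sign in all 29, from 0.08 to 0.55. Some of these could not move its estimate of 0.31: other probe filters, the full replicate block and the intensity trend with robust prior. Leaving out border spots could not move it either, since this probe had none. The 29 are therefore not separate checks of its sign. The brighter Ldha probe turned in 5, Pgk1 in 5, Pdk3 in 1 and Sdha in 4. The adjusted threshold was passed by Pdk3 in 1 setting and by the dimmer Ldha probe in 2, all with array weights estimated on all tested probes.

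**Figure D4:**
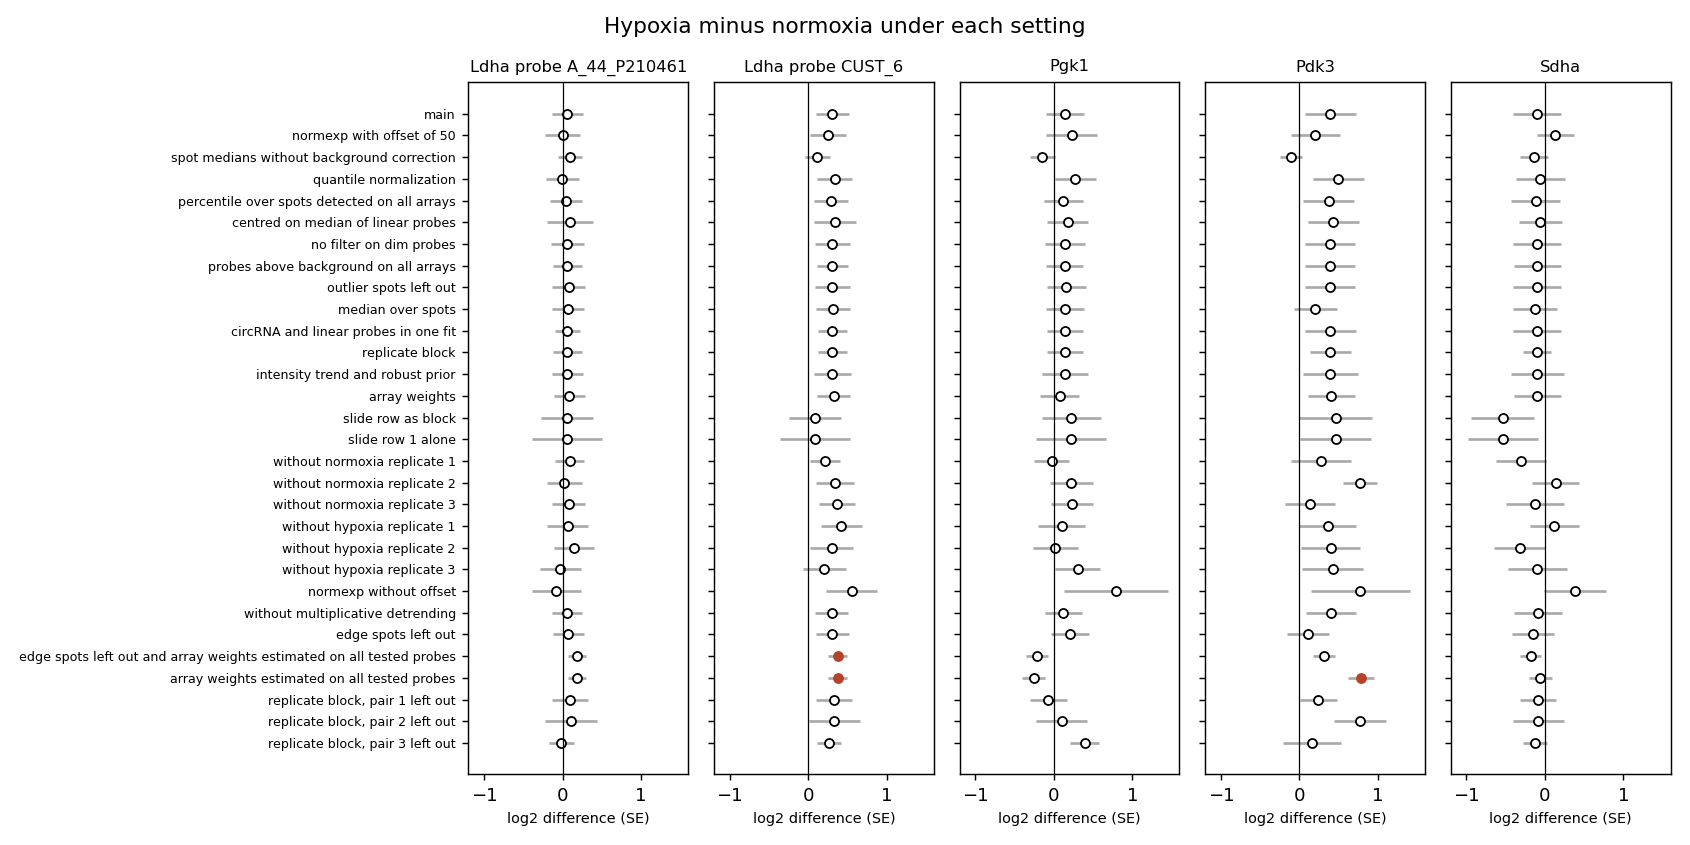
Difference between hypoxia and normoxia (log2, bars are the SE) of the 5 probes under the main setting and 29 alternatives, 1 per line; filled red points passed an adjusted p of 0.05. The dimmer Ldha probe stays above 0 on each line, some of which share its main estimate by construction. Pdk3 ranges from -0.11 to 0.78, and red points appear only on the lines with array weights estimated on all tested probes.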

How the data were processed

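Per the file headers, the deposited intensity values and the 0 or 1 spot flags came from Agilent Feature Extraction 11.0.1.1, with background subtracted and each array detrended alone. Main values were log2 processed signal minus the 75th percentile over non-control spots, averaged over every spot. A linear transcript probe was tested where a share of 0.5 of its spots was well above background on at least 3 arrays (limma 3.58.1, R 4.3.3, two-sided, Benjamini-Hochberg at 0.05). Symbols came from RefSeq (GRCr8). Single values were compared by exact permutation. Code was tested on simulated data. Precision is limited by having 6 arrays.

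The members, lists and tests were chosen with earlier results of these data known. The naming rule covered all 5 probes, list genes with a probe, and the 2 most alike named probes per member. Same-numbered arrays deviated together (0.55, 0.71 and 0.21 over 12058 probes, each over 0.1), so they were treated as paired in the blocked fit. This pairing comes from the values, not a stated design. The authors' deposited log2 table lists circRNAs only and was not used here. Probe sequences were not used here.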

Additional observations from a re-analysis of the deposited data

How the results depend on the processing

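Of 29 other settings, those below turned a direction, changed a member's call or moved the count of calls, and the cause was not tested. Normexp with an offset of 50 gave -0.0016 for Ldha A_44_P210461, 0.13 for Sdha and 0 linear transcripts called. Normexp without offset gave -0.078, 0.38 and 0, and moved the median of all probes to 0.22 from -0.02. Quantile normalization gave -0.0035 for that Ldha probe and 1 call. Spot medians without background correction gave -0.14 for Pgk1 and -0.11 for Pdk3. Against 2 linear transcripts called, there was 1 without the dim-probe filter, with detection on all arrays, with array weights or without detrending, 0 in one fit with circRNAs, 4 with the slide row as a block and 3 in slide row 1 alone. Array weights from all tested probes gave 14 calls, 2 of them members: Ldha CUST_6 at 0.37 and Pdk3 at 0.78, with Pgk1 at -0.26. Without border spots they gave 13 calls, 1 a member (Ldha CUST_6 at 0.37), with Pgk1 at -0.21. Weights and border spots were chosen after seeing the data.

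Leaving out 1 array gave -0.029 to 0.15 for Ldha A_44_P210461, -0.026 to 0.30 for Pgk1, -0.32 to 0.14 for Sdha and 1 to 2 calls. The replicate block left 2 linear transcripts and 0 members called and changed no member's call (Ldha CUST_6 0.31, SE 0.18). With pair 1 left out of the replicate block Pgk1 was -0.067, and with pair 3 left out Ldha A_44_P210461 was -0.015 with 0 calls. With pair 2 left out there were 3 calls. The authors' deposited log2 values were not run as an alternative, since that table lists no linear transcript. The widest intervals were those of Pdk3 and Sdha (SE 0.32 and 0.31).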
